A study of Rattus norvegicus with 12 samples.

Results

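INS-1 cells, a rat insulinoma line that serves as a model of the pancreatic β-cell, were exposed to a cytokine cocktail with or without I-BET762, and the effect of I-BET762 under cytokines is described here gene by gene. The CCIB group (cytokines with I-BET762) was set against the CCVC group (cytokines with vehicle), with 3 libraries each, which are 6 of the 12 libraries of the series. CCIB cells received 500 nM I-BET762 and CCVC cells its vehicle for 48 h, and a cocktail of 3 cytokines was then added to both with I-BET762 or vehicle still present, namely 10 ng/mL of IL-1β, 25 ng/mL of TNF-α and 100 ng/mL of IFN-γ, in medium with 11 mM glucose. According to the treatment protocol and the published description of these RNA libraries, cytokines were present for 8 h, although the series design text gives 72 h of treatment with cytokines in the last 24 h. The same drug in resting cells, IB (500 nM I-BET762) against VC (vehicle), with 3 libraries each, serves as a second reading and shares no group with the first. All 4 groups are 1 cell line in culture, and nothing in the labels says that the libraries came from separate cultures. Genes were kept where the mean FPKM (fragment counts divided by gene length and by sequencing depth) of the 4 groups reached 1, which held for 8795 of the 9694 deposited genes.

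I-BET762 occupies the acetyl-lysine pockets of the BET bromodomain proteins. BET proteins read acetylated histones at promoters and enhancers and help to release paused RNA polymerase through the kinase complex P-TEFb, and genes under large enhancers are known to depend on them most. In β-cells, IL-1β and TNF-α act mainly through NF-κB and IFN-γ through the JAK and STAT proteins, and together they switch on chemokines, antigen presentation and nitric oxide synthesis and dampen the genes of insulin secretion.

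The deposited table holds 1 mean per group and no library columns, so no test could be run, and "higher" and "lower" stand below for a difference in group means of 1.5-fold or more on the log2(FPKM + 1) scale. The table contains only genes that had been called in some comparison of the series, which raises every share below over that of a whole transcriptome. Spread was taken from the library values of a supplementary table, available here for 1752 genes called in this same contrast, of which 1646 were kept. Among them the median standard error (SE) of the log2 ratio was 0.083, from 0.12 at 1 to 5 FPKM down to 0.058 at 100 FPKM and above. With 3 against 3 libraries an exact two-sided permutation test cannot go below p = 0.10, so none was run. The libraries were of like depth, at 22537056 to 23780162 fragments for CCIB and 22342768 to 24919582 fragments for CCVC as implied by counts and FPKM. Of the 8 β-cell markers, 7 were listed, led by Ins1 at 20738 FPKM in CCIB and 10243 FPKM in CCVC. None of the 5 acinar, 2 delta, 1 PP and 1 epsilon markers was listed in the table. Of 4 alpha markers only Gcg was listed, and of 5 leucocyte markers only Cd74, at 12.2 FPKM in CCIB and 15.3 FPKM in CCVC. The keratin Krt7, a ductal marker, stood at 218 FPKM in CCIB and 193 FPKM in CCVC, and the mesenchymal marker Thy1 at 95.5 FPKM in CCIB and 93.7 FPKM in CCVC. The other listed ductal, mesenchymal and endothelial markers, Sox9, Vim and Kdr, were under 2 FPKM in both groups. In bulk RNA, expression in fewer cells and a lower level per cell cannot be told apart.

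Under cytokines, I-BET762 went with lower expression in more genes than with higher expression. Of the 8795 genes, 1022 (11.6%) were lower in CCIB than in CCVC and 299 (3.40%) were higher. Past 2-fold there were 291 genes lower and 52 higher, and past 4-fold 20 lower and 6 higher, while 61.0% of genes had a log2 ratio within 0.32 of 0. The median log2 ratio over all genes was −0.07, with quartiles of −0.35 and 0.16, and after centring on that median 826 genes (9.39%) were lower and 411 (4.67%) were higher. On the normalized counts of the supplementary table, ratios were 0.11 higher in the median on the log2 scale than on FPKM. This shift was taken over genes with library values and a mean above 200 normalized counts in CCIB. Levels relative to the cell as a whole therefore depend on the scaling. With all ratios moved by that amount, 713 genes were lower and 505 higher, and the share of higher genes among those past 1.5-fold was 41.5% in place of 22.6%. Medians of gene groups are therefore given below relative to the median of all genes.

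**Figure D1:**
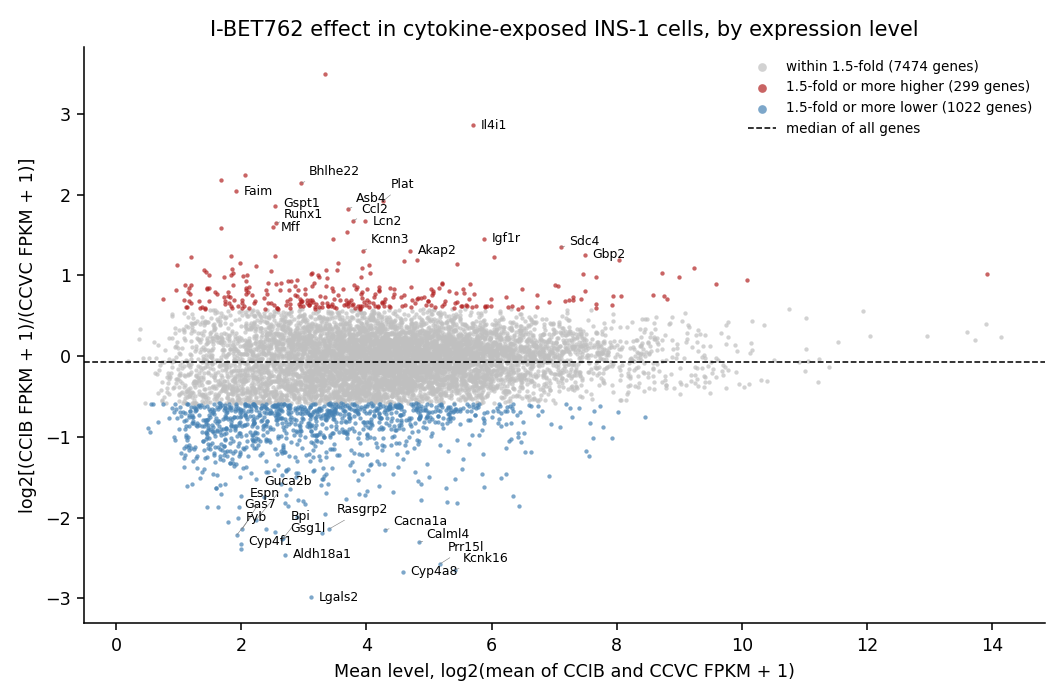
Log2 ratio of CCIB over CCVC (y axis, group means, FPKM + 1) against mean level (x axis, log2) for the 8795 genes; red points are the 299 genes higher in CCIB, blue points the 1022 genes lower, and the dashed line is the median of all genes. The 15 largest named genes in each direction are labelled, from Lgals2 at −2.99 to Il4i1 at 2.86, and points spread more widely at low levels.

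Genes of low expression were more often lower in CCIB. With the genes cut into 5 equal bins of mean expression, 4.95% of the lowest bin were higher in CCIB and 2.50% of the highest bin. Across the bins from low to high expression, the share of lower genes was 25.1%, 12.5%, 9.32%, 6.77% and 4.43%. Only genes called in some comparison are in the table, and a call at a low level takes a larger change. How far this shapes these shares was not tested. The gene lists below were not matched for expression level. With 5 bins of transcript length, 14.7% of the shortest and 8.19% of the longest were lower. Pseudogenes supplied 6 of the 299 higher and 5 of the 1022 lower genes, and protein-coding genes 285 and 1009.

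The promoters of the lower genes differed in base composition from those of genes that were neither, and base composition was not part of the rule. Of the 8795 genes, 6309 matched a RefSeq promoter (GRCr8, 250 bases before to 50 bases after the first listed start) by symbol, among them 194 higher, 697 lower and 5418 neither. A CpG ratio, the observed over the expected number of CG pairs, under 0.5 was found in 19.6% of the higher and 35.0% of the lower genes, against 13.6% of those that were neither and 16.2% of all matched genes. Read the other way, 23.9% of CpG-poor promoters and 8.57% of the others belonged to genes lower in CCIB. CpG-poor promoters were 30.3% of the lowest and 10.9% of the highest of 5 expression bins of the matched genes, so the comparison was repeated within these bins. From the lowest to the highest bin, CpG-poor promoters made up 43.2%, 31.8%, 22.2%, 29.3% and 32.0% of the lower genes, against 26.1%, 13.3%, 11.4%, 10.4% and 9.78% of the genes that were neither. In the same order they made up 27.5%, 19.6%, 12%, 7.14% and 19.2% of the higher genes, of which the bins held only 69, 46, 25, 28 and 26. For the higher genes the difference was thus not seen in every bin, with 7.14% against 10.4% of the genes that were neither. Genes are not replicates, and these shares are descriptions with no test.

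**Figure D2:**
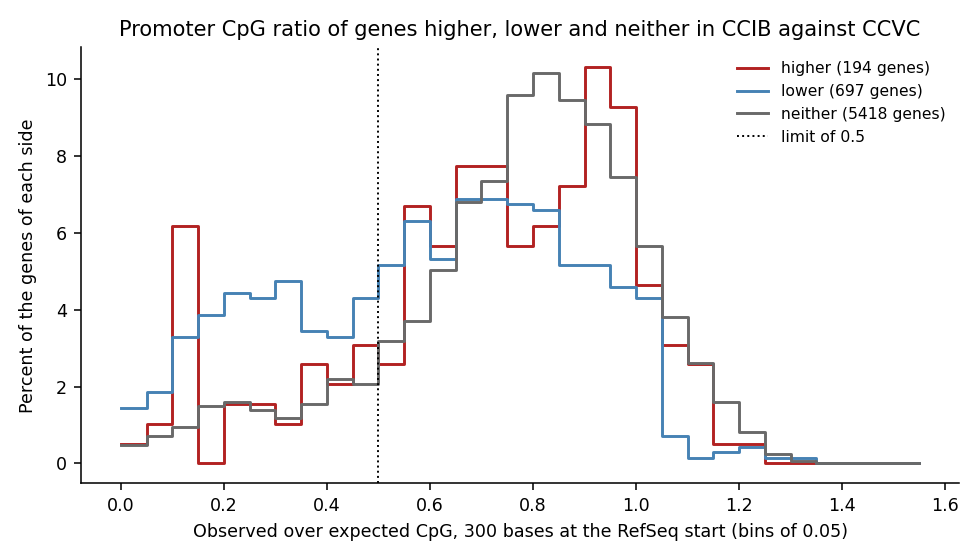
Distribution of the promoter CpG ratio (x axis, bins of 0.05; y axis, percent of the genes of each side) for genes higher (194, red), lower (697, blue) and neither (5418, grey) in CCIB against CCVC. Under the dotted limit of 0.5 lie 35.0% of the lower genes and 13.6% of the genes that were neither.

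Of 10 motifs searched on both strands of these promoters by their letters, 9 are given here, and they do not speak for the one left out. The HNF4 motif CAAAGTCC was in 1.72% of lower, 1.03% of higher and 1.27% of all matched promoters, and both higher genes with it were Ins1 and Ins2. The ETS motif CCGGAA, frequent in housekeeping promoters, was in 12.2% of lower and 18.6% of higher promoters, against 27.2% of all. The κB motif (GGGNN, then TTNCC, where N is any base) was in 6.74% of lower and 5.67% of higher promoters, against 5.72% of all, and the interferon-stimulated response element (GAAA, then NN and GAAA) in 2.15% and 2.58%, against 2.88% of all. The κB and interferon motifs were close to their background on both sides. The NRF1 motif was in 0.287% of lower, 1.55% of higher and 2.27% of all matched promoters, and the CRE motif TGACGTCA in 2.15% of lower, 3.09% of higher and 3.42% of all. The TATA motif TATAAA was in 7.32% of lower, 8.76% of higher and 6.04% of all, the AP-1 motif TGANTCA in 5.60% of lower, 2.58% of higher and 4.52% of all, and CCAAT in 34.9% of lower, 40.7% of higher and 37.1% of all.

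These 3 promoters are printed to show the letters behind these counts, chosen after the values were seen: the gene with the largest lower ratio and the 2 interferon-effector genes that were higher. Each is read 5′ to 3′ on the strand of the gene, with the motif in capitals.
Lgals2, HNF4 motif from position −104, chr7:112290074-112290373, minus strand: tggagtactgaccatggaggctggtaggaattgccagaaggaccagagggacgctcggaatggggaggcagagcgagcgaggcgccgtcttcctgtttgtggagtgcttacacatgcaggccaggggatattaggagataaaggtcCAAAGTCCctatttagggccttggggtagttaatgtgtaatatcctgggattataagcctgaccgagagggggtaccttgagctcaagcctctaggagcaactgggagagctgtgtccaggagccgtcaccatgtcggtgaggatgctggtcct
Gbp2, interferon element read on the other strand from position −31, chr2:234005477-234005776, plus strand: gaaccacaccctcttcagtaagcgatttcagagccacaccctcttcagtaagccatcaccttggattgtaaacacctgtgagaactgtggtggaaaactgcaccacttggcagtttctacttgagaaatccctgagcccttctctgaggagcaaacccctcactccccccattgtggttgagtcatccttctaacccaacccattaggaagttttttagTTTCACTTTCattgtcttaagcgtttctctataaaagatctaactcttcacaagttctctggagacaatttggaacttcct
Il4i1, κB motif read on the other strand from position −221, chr1:104435290-104435589, plus strand, first of 5 listed starts: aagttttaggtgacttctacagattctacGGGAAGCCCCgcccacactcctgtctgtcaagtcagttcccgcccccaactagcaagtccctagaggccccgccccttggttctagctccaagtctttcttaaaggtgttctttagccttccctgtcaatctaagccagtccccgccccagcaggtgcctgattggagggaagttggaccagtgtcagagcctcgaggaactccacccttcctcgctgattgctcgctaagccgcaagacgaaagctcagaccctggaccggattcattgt
The CpG ratios of these promoters were 0.43 for Lgals2, 0.14 for Gbp2 and 0.50 for Il4i1, and a letter match says nothing on whether a factor binds there.

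The 15 largest lower ratios were of mixed kinds, and 4 of these genes were on a list of HNF (hepatocyte nuclear factor) and epithelial genes. Lgals2, Prr15l and Calml4 were among these 4 and had been put on the list because earlier results of these data named them. The overlap is therefore no independent result. Lgals2, which encodes a galectin of the gut epithelium, had 1.87, 0.511 and 0.416 FPKM in the CCIB libraries and 16.1, 12.2 and 14.6 FPKM in the CCVC libraries (log2 ratio −2.99, SE 0.34). The library of CCIB replicate 3 was the highest of its group, and the groups did not overlap. Cyp4a8, a fatty acid hydroxylase, had 6.42, 4.82 and 5.28 FPKM in CCIB and 45.4, 37.2 and 38.8 FPKM in CCVC (log2 ratio −2.67, SE 0.13). Espn, which bundles actin in microvilli, had 0.799, 0.297 and 0.377 FPKM in CCIB and 7.28, 4.34 and 5.13 FPKM in CCVC (log2 ratio −2.14, SE 0.24). Hnf4a itself, the nuclear receptor of liver, gut and islet, had 8.25, 10.3 and 11.8 FPKM in CCIB and 22.1, 19.9 and 21.8 FPKM in CCVC (log2 ratio −1.0, SE 0.14). For Lgals2, Cyp4a8, Espn and Hnf4a every CCIB library lay below every CCVC library. The genes with library values had been called in this contrast beforehand, so such a separation is no independent evidence.

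Of the 77 HNF and epithelial genes of that list, 41 were measured, and 23 of these (56.1%) were lower and 1 was higher, with a median 0.69 below that of all genes on the log2 scale. The background was 11.6% lower and 3.40% higher. The whole list was chosen with earlier results of these data known, so its shares, with or without single members, are no independent result. Lgals2, Prr15l and Calml4 were on this list because earlier results of these data had named them, and without them 20 of 38 genes were lower. Among the others were Ambp at 36.7 FPKM in CCIB and 135 FPKM in CCVC (a plasma protein precursor), Tff3 at 111 FPKM in CCIB and 253 FPKM in CCVC (a secreted mucosal peptide), Vil1 at 14.3 FPKM in CCIB and 33.8 FPKM in CCVC (an actin bundler of microvilli) and Krt18 at 155 FPKM in CCIB and 284 FPKM in CCVC (a keratin of simple epithelia). The exception was Fgb, a fibrinogen chain, with 8.64, 9.90 and 10.9 FPKM in CCIB and 5.86, 6.56 and 6.16 FPKM in CCVC (log2 ratio 0.59, SE 0.10). Cdhr2, a protocadherin of the brush border, had 10.0 FPKM in CCIB and 26.8 FPKM in CCVC. At rest, 19 of the 41 were lower in IB than in VC and none was higher.

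**Figure D3:**
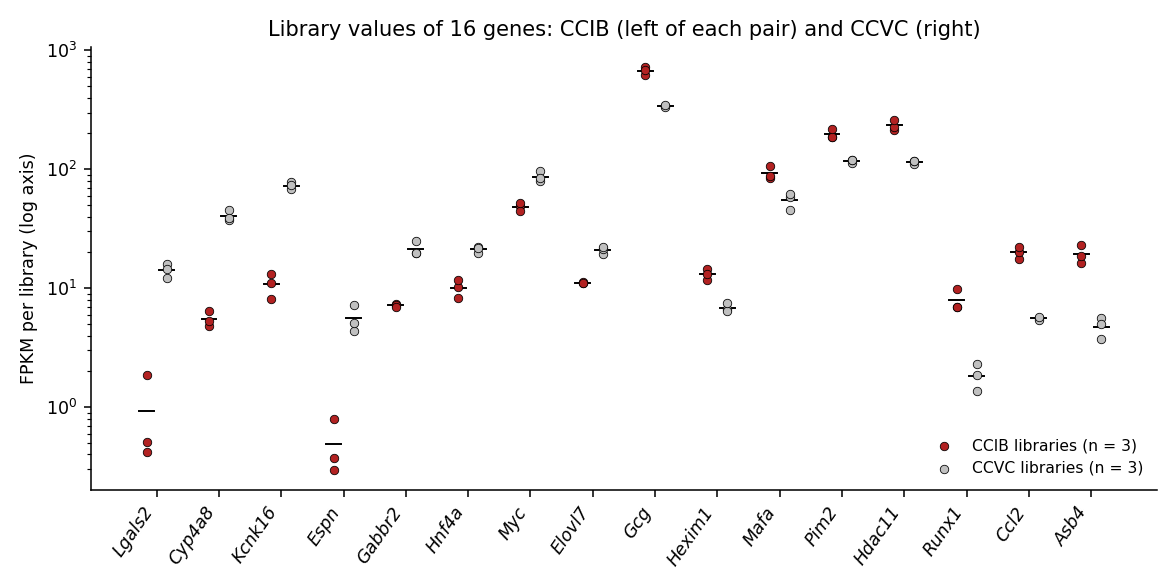
FPKM of each library (y axis, log scale) for 16 genes with library values; red points are the 3 CCIB libraries, grey points the 3 CCVC libraries, and bars are group means. Lgals2, with 0.931 FPKM in CCIB and 14.3 FPKM in CCVC, shows the widest gap downward, and Asb4, Ccl2 and Runx1 the widest upward.

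Ion channel genes were more often lower than the 11.6% of all genes. Potassium channel genes were also more often higher than the 3.40% of all genes, so they did not move 1 way. Among 34 potassium channel genes, 11 (32.4%) were lower and 5 (14.7%) were higher, and among 31 calcium, sodium and chloride channel genes, 11 (35.5%) were lower and 1 was higher. Kcnk16, the two-pore potassium channel TALK-1 of the β-cell, had 13.2, 11.1 and 8.09 FPKM in CCIB and 77.4, 67.8 and 73.2 FPKM in CCVC (log2 ratio −2.64, SE 0.20). Its CCIB libraries lay far below all CCVC libraries. Cacna1a, the pore subunit of P/Q-type calcium channels, was at 6.25 FPKM in CCIB and 31.2 FPKM in CCVC, and the channel-binding protein Kcnip3 at 15.6 FPKM in CCIB and 46.1 FPKM in CCVC. Channels with higher levels in CCIB included the small-conductance calcium-activated channel Kcnn3 (20.9 FPKM in CCIB, 7.86 FPKM in CCVC), Kcnd3 (3.74 FPKM in CCIB, 1.37 FPKM in CCVC) and the ATP-sensitive channel pore Kcnj11 (247 FPKM in CCIB, 157 FPKM in CCVC). The channel-binding protein Kcnip1 was higher as well. Cacna1g, a T-type calcium channel, had 9.15, 9.85 and 9.55 FPKM in CCIB and 5.78, 5.33 and 5.44 FPKM in CCVC (log2 ratio 0.69, SE 0.04).

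Of 49 listed receptors of secretagogues and inhibitors, 26 were measured, 9 (34.6%) lower and 3 (11.5%) higher. Both shares were above those of all genes, 11.6% lower and 3.40% higher. Gpr119, a lipid receptor that raises cAMP, was at 4.06 FPKM in CCIB and 13.5 FPKM in CCVC, and the prolactin receptor Prlr at 6.08 FPKM in CCIB and 15.6 FPKM in CCVC. The calcium-sensing receptor Casr had 1.28, 0.799 and 1.15 FPKM in CCIB and 4.38, 4.67 and 3.52 FPKM in CCVC (log2 ratio −1.32, SE 0.14). The higher receptors were Igf1r at 84.9 FPKM in CCIB and 30.3 FPKM in CCVC, Cckar at 21.1 FPKM in CCIB and 11.96 FPKM in CCVC and Ffar3 at 11.7 FPKM in CCIB and 7.25 FPKM in CCVC. Of 24 neurotransmitter receptor genes, 6 (25.0%) were lower and 1 was higher, with the GABA-B subunit Gabbr2 at 7.41, 7.17 and 6.91 FPKM in CCIB and 24.9, 19.6 and 19.8 FPKM in CCVC. Among the lower ones, Htr5b, Gabrd and Htr3a stood at only 4.05, 3.60 and 3.13 FPKM in CCVC. In the lowest expression bin of all genes 25.1% were lower, so the share of this list is not read as a trait of these receptors. Of 154 solute carriers, 28 (18.2%) were lower and 5 (3.25%) were higher.

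Genes of the secretory granule had the highest median of the 59 lists. Of 19 measured genes of granule cargo, processing and zinc, 4 (21.1%) were higher and 1 was lower, against 3.40% and 11.6% of all genes. The list median was 0.43 above that of all genes. At rest 6 of the 19 were higher and 1 was lower, with a median 0.54 above that of all genes, of which 4.96% were higher. Ins1 was at 20738 FPKM in CCIB and 10243 FPKM in CCVC (log2 ratio 1.02), and at 26722 FPKM in IB and 11528 FPKM in VC. Ins2, whose sequence is nearly identical to that of Ins1 so that reads may be split between them, was at 64.3 FPKM in CCIB and 34.1 FPKM in CCVC. Gcg, the glucagon precursor, had 618, 718 and 689 FPKM in CCIB and 343, 336 and 350 FPKM in CCVC (log2 ratio 0.98, SE 0.07). Its lowest CCIB library was well above its highest CCVC library. Pam, which amidates peptide hormones, was at 478 FPKM in CCIB and 283 FPKM in CCVC. The member that was lower was Gc, the vitamin D binding protein, with 267, 244 and 266 FPKM in CCIB and 421, 434 and 453 FPKM in CCVC (log2 ratio −0.75, SE 0.05). Chgb, a granin of the granule matrix, was at 4669 FPKM in CCIB and 3174 FPKM in CCVC, short of 1.5-fold.

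β-cell transcription factors were split, with 3 of 25 higher and 4 lower, the second share near the background of 11.6%. Of all genes, 3.40% were higher. Mafa, which activates the insulin gene, had 84.6, 106 and 87.2 FPKM in CCIB and 58.7, 45.4 and 61.7 FPKM in CCVC (log2 ratio 0.73, SE 0.17). Pdx1 was at 114 FPKM in CCIB and 63.6 FPKM in CCVC, and the motor neuron and pancreas homeobox gene Mnx1 at 45.1 FPKM in CCIB and 24.6 FPKM in CCVC. On the lower side stood Nkx2-2, an islet homeobox factor, at 12.4 FPKM in CCIB and 27.7 FPKM in CCVC, Ovol2, the LIM-domain cofactor Ldb1 at 56.0 FPKM in CCIB and 90.3 FPKM in CCVC, and Hnf4a. Pax6 had 144, 158 and 155 FPKM in CCIB and 107, 121 and 119 FPKM in CCVC (log2 ratio 0.39, SE 0.07), short of 1.5-fold without overlap of the libraries. Nkx6-1 was at 8.09 FPKM in CCIB and 8.43 FPKM in CCVC. Among 40 homeobox, Fox and Sox genes, 13 (32.5%) were lower and 1 was higher, with Hoxc8, Lhx8 and Hoxb3 among the lowest ratios. Of 39 genes of exocytosis, 4 (10.3%) were lower and 3 (7.69%) were higher, the last being Syt1, Unc13b and the SNARE gene Snap25 with 91.4, 99.3 and 98.8 FPKM in CCIB and 60.9, 63.3 and 63.6 FPKM in CCVC.

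Inflammatory genes did not share 1 direction. Of 17 measured chemokines and cytokines, 5 (29.4%) were higher and 3 (17.6%) were lower, against 3.40% and 11.6% of all genes. Ccl2, the monocyte chemoattractant, had 17.7, 20.3 and 22.0 FPKM in CCIB and 5.57, 5.37 and 5.76 FPKM in CCVC (log2 ratio 1.68, SE 0.09). Lif, an interleukin-6 family cytokine, had 59.4, 48.2 and 53.4 FPKM in CCIB and 33.0, 31.0 and 28.4 FPKM in CCVC. Cxcl2 had 21.0, 18.2 and 22.6 FPKM in CCIB and 12.3, 10.7 and 13.0 FPKM in CCVC. Cxcl11, an interferon-induced chemokine, was at 552 FPKM in CCIB and 339 FPKM in CCVC. The lower genes were Tnfsf10, the death ligand TRAIL, at 6.42 FPKM in CCIB and 20.6 FPKM in CCVC, Ccl20 at 1.44 FPKM in CCIB and 6.005 FPKM in CCVC and Cxcl12 at 2.65 FPKM in CCIB and 5.58 FPKM in CCVC. Cxcl10, the highest-expressed member, was at 518 FPKM in CCIB and 481 FPKM in CCVC.

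Against 3.40% higher and 11.6% lower among all genes, 5 (23.8%) of 21 measured NF-κB targets of the β-cell were higher and 1 was lower. Besides Ccl2, they were Sod2, the mitochondrial superoxide dismutase, at 817 FPKM in CCIB and 383 FPKM in CCVC, the iron-binding protein Lcn2 at 22.9 FPKM in CCIB and 6.50 FPKM in CCVC, the complement gene C3 at 12.2 FPKM in CCIB and 6.26 FPKM in CCVC and the inducible nitric oxide synthase Nos2 at 18.8 FPKM in CCIB and 11.2 FPKM in CCVC. Cd40 was lower, at 5.48 FPKM in CCIB and 9.88 FPKM in CCVC. Among 35 genes of the NF-κB pathway itself, 1 was higher and 2 were lower, shares of 2.86% and 5.71% that are below the background, and 32 stayed within 1.5-fold. Il1rap, the accessory chain of the IL-1 receptor, had 10.6, 11.7 and 10.6 FPKM in CCIB and 6.39, 5.88 and 6.17 FPKM in CCVC (log2 ratio 0.74, SE 0.05). The lower genes were the adaptor Myd88 at 2.18 FPKM in CCIB and 5.45 FPKM in CCVC, and the kinase Map3k7 with a log2 ratio of −0.96. The subunit gene Nfkb2 was at 177 FPKM in CCIB and 152 FPKM in CCVC, and Rela, singled out after its values were seen, at 41.5 FPKM in CCIB and 51.8 FPKM in CCVC.

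On the interferon side, 0 of 30 JAK, STAT, IRF and SOCS genes were higher and 2 (6.67%) were lower, Stat5a and Stat6. Of 53 interferon effectors, 2 (3.77%) were higher and 3 (5.66%) were lower, close to or below the background. Il4i1, a secreted amino acid oxidase, was at 90.2 FPKM in CCIB and 11.6 FPKM in CCVC (log2 ratio 2.86), and at 4.19 FPKM in IB and 3.05 FPKM in VC. Gbp2, a guanylate-binding protein, was at 252 FPKM in CCIB and 105 FPKM in CCVC. Oas2, Lgals9 and Irgm were lower, with Lgals9 at 49.3 FPKM in CCIB and 90.6 FPKM in CCVC. Of 26 antigen presentation genes, 4 (15.4%) were lower and none was higher, a share near the background of 11.6%. All 4 were of the RT1 (rat MHC) family, whose members share sequence so that reads may be split between them. RT1-S3 had 51.4, 56.6 and 59.9 FPKM in CCIB and 115, 104 and 121 FPKM in CCVC (log2 ratio −1.01, SE 0.09).

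**Figure D4:**
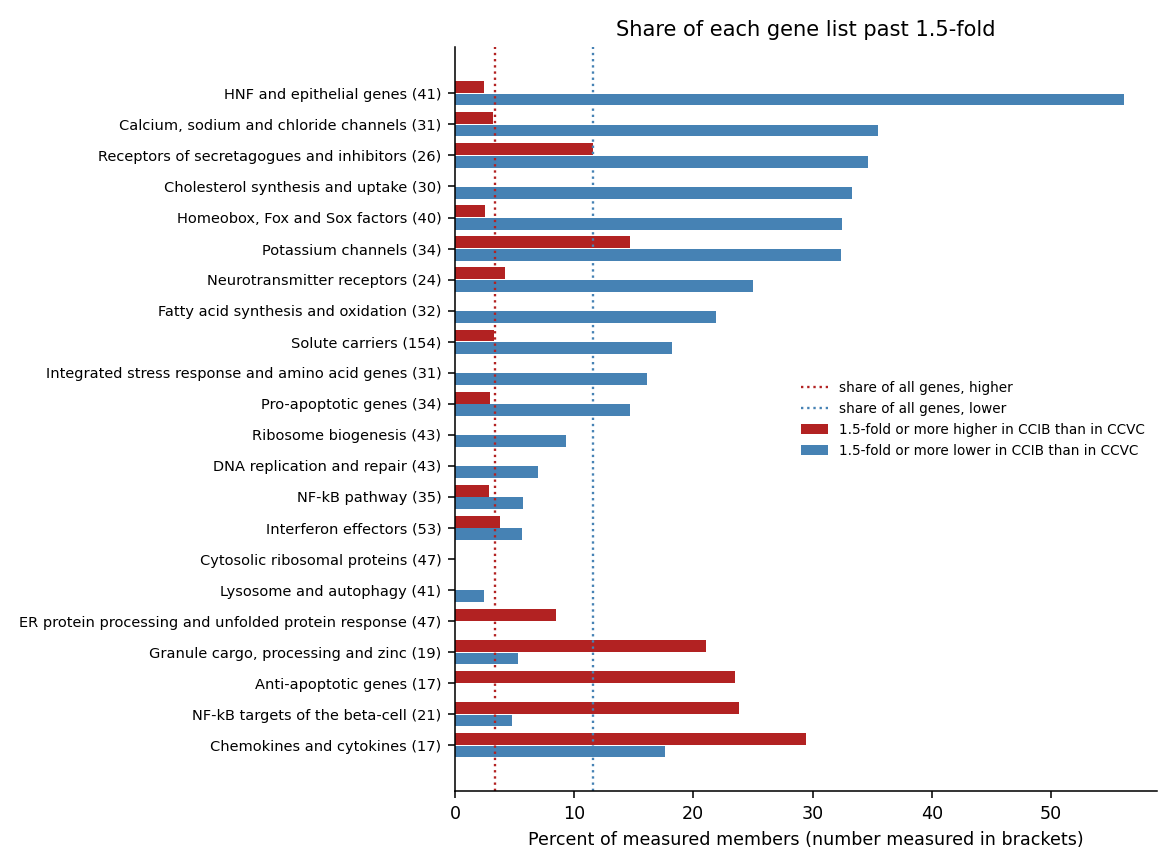
Percent of the measured members of 22 gene lists (number measured in brackets) that were higher (red) or lower (blue) by 1.5-fold or more in CCIB than in CCVC; dotted lines give the shares of all 8795 genes, 3.40% and 11.6%. The HNF and epithelial list reaches 56.1% lower, and the chemokine list 29.4% higher.

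Of 17 measured anti-apoptotic genes, 4 (23.5%) were higher and none was lower, against 3.40% and 11.6% of all genes. Of 34 pro-apoptotic genes, 1 was higher and 5 (14.7%) were lower, a share near the background of 11.6%. Pim2, a survival kinase, had 188, 186 and 217 FPKM in CCIB and 114, 121 and 119 FPKM in CCVC (log2 ratio 0.74, SE 0.08). Its relative Pim1 had 34.5, 25.6 and 37.0 FPKM in CCIB and 20.4, 21.6 and 18.6 FPKM in CCVC. Bag1 and Faim, an inhibitor of Fas-driven death at 5.08 FPKM in CCIB and 0.477 FPKM in CCVC, were the others, and at rest Faim was at 3.93 FPKM in IB and 3.77 FPKM in VC. Bbc3, the BH3-only protein PUMA, was at 20.9 FPKM in CCIB and 37.5 FPKM in CCVC, and Bcl2l14, Bok and Endog were lower as well. The exception was Bcl2l11, the related protein BIM, at 13.7 FPKM in CCIB and 7.70 FPKM in CCVC. Xiap, an inhibitor of caspases, was at 20.4 FPKM in CCIB and 21.9 FPKM in CCVC.

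On the lists of cholesterol and fatty acid genes, all members past 1.5-fold were lower, which does not extend to lipid genes outside these lists. Of 30 measured genes of cholesterol synthesis and uptake, 10 (33.3%) were lower and none was higher, with a median 0.30 below that of all genes, and at rest 4 were lower. Hmgcs1, an early enzyme of the pathway, was at 20.8 FPKM in CCIB and 39.3 FPKM in CCVC. Of 32 genes of fatty acid synthesis and oxidation, 7 (21.9%) were lower and none was higher, led by acetyl-CoA carboxylase Acaca at 17.0 FPKM in CCIB and 37.4 FPKM in CCVC. Of 36 genes of glycolysis and the TCA cycle, 6 (16.7%) were lower, near the background of 11.6%, and 1 was higher, the enolase Eno3 at 2.49 FPKM in CCIB and 0.958 FPKM in CCVC. Among the lower ones, the pyruvate kinase Pklr was at 27.3 FPKM in CCIB and 49.2 FPKM in CCVC. Pdhb, a subunit of pyruvate dehydrogenase, had 27.8, 27.2 and 30.3 FPKM in CCIB and 49.2, 49.8 and 52.3 FPKM in CCVC (log2 ratio −0.80, SE 0.05).

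Several groups with few members past 1.5-fold lay mostly to 1 side of the median of all genes. None of the 47 cytosolic ribosomal protein genes passed 1.5-fold, and 42 of them lay below that median, with a group median 0.23 under it. Of 43 ribosome biogenesis genes, 4 (9.30%) were lower (Nop2, Polr1e, Gar1 and Utp20) and 41 lay below the median of all genes, with a group median 0.31 under it. Of 43 DNA replication and repair genes, 3 (6.98%) were lower and 36 lay below that median. ER protein processing lay on the other side, with 4 of 47 genes (8.51%) higher, none lower and 40 above the median of all genes. Of all genes, 3.40% were higher. Hspa5, the ER chaperone BiP, was at 1000.0 FPKM in CCIB and 539.9 FPKM in CCVC, and Pdia4, a disulphide isomerase, had 242, 247 and 240 FPKM in CCIB and 156, 168 and 157 FPKM in CCVC (log2 ratio 0.60, SE 0.04). Of 41 lysosome and autophagy genes, 31 lay above the median of all genes and 1 was past 1.5-fold, Gusb, which was lower. Of 44 cell cycle genes, 3 (6.82%) were lower, a share below the background of 11.6%, namely the cyclins Ccnd1 and Ccnd2 and the inhibitor Cdkn1a.

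Of 21 genes of the BET proteins and P-TEFb, 19 stayed within 1.5-fold. Hexim1, which holds P-TEFb inactive and is a known marker of BET inhibition, had 11.8, 14.4 and 13.1 FPKM in CCIB and 6.72, 6.38 and 7.49 FPKM in CCVC (log2 ratio 0.84, SE 0.10). Its relative Hexim2 was at 5.29 FPKM in CCIB and 8.76 FPKM in CCVC. Myc, a classical BET-dependent gene, had 48.9, 44.7 and 51.7 FPKM in CCIB and 79.0, 96.0 and 85.2 FPKM in CCVC (log2 ratio −0.83, SE 0.10). Hdac11, a histone deacetylase, had 213, 228 and 261 FPKM in CCIB and 111, 118 and 118 FPKM in CCVC (log2 ratio 1.01, SE 0.09), and was at 21.7 FPKM in IB and 19.99 FPKM in VC. Runx1, a transcription factor of blood development, had 6.90, 9.87 and 6.92 FPKM in CCIB and 1.85, 2.31 and 1.36 FPKM in CCVC. Asb4, an adaptor of ubiquitin ligases, had 23.0, 16.3 and 18.7 FPKM in CCIB and 3.71, 5.58 and 4.97 FPKM in CCVC (log2 ratio 1.82, SE 0.20). The immediate-early gene Junb and the MAPK phosphatases Dusp4 and Dusp6 were higher, with Dusp4 at 25.3, 21.6 and 20.4 FPKM in CCIB and 12.4, 12.4 and 12.2 FPKM in CCVC.

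The effect of I-BET762 under cytokines was set beside that in resting cells, where 921 genes (10.5%) were lower in IB than in VC and 436 (4.96%) were higher. Lower in both states were 616 genes, which is 60.3% of those lower under cytokines and 66.9% of those lower at rest. Higher in both were 164 genes, 54.8% of those higher under cytokines and 37.6% of those higher at rest. Across the 8795 genes the log2 ratios of the 2 states had a Pearson r of 0.76 and a Spearman rho of 0.78, given as a description over genes. Opposite directions past 1.5-fold were found for 12 genes, 11 of them lower under cytokines and higher at rest. Among those with a gene name were Aldh18a1, an enzyme of proline synthesis, at 0.996 FPKM in CCIB and 9.98 FPKM in CCVC but 4.26 FPKM in IB and 0.952 FPKM in VC, and the small GTPase Gem. The reverse held for Pdgfb, a growth factor chain, at 11.5 FPKM in CCIB and 5.19 FPKM in CCVC with a log2 ratio of −0.71 for IB over VC at rest. The 12 genes were not chosen by a test, and the difference between the states was not tested.

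**Figure D5:**
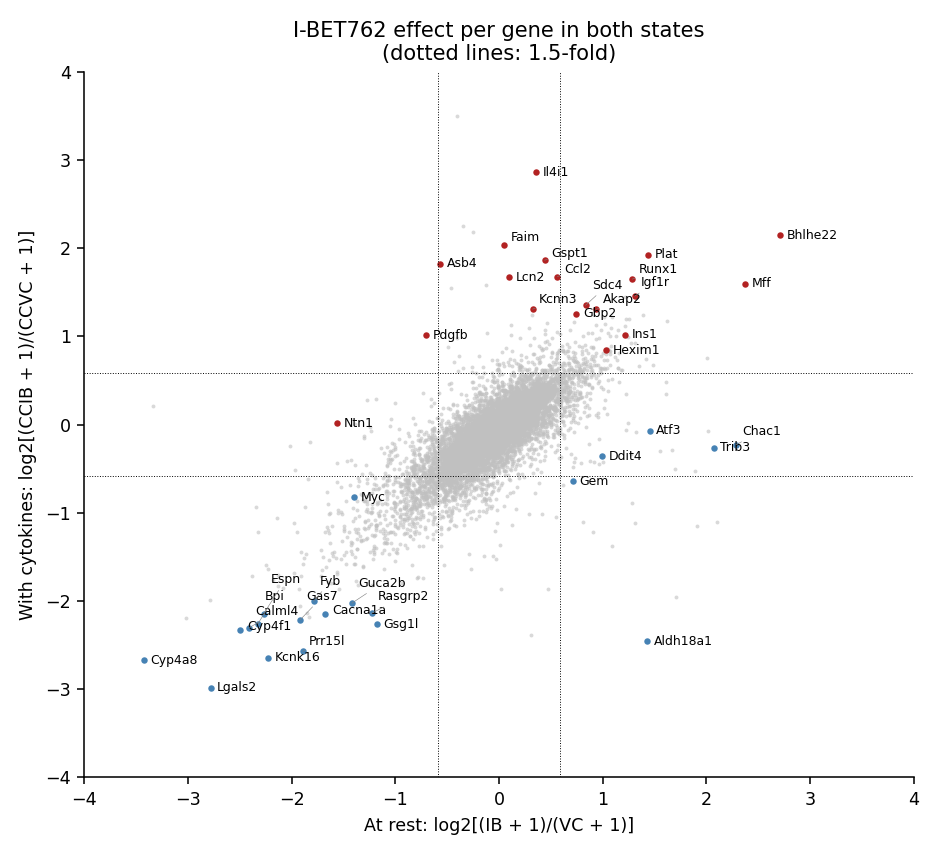
Log2 ratio of I-BET762 over vehicle under cytokines (y axis, CCIB over CCVC) against that at rest (x axis, IB over VC) for 8795 genes; dotted lines mark 1.5-fold, and coloured points are labelled genes. Most points follow the diagonal (Pearson r 0.76), Il4i1, Lcn2 and Faim lie near 0 at rest, and Chac1, Trib3 and Atf3 lie near 0 under cytokines. Lcn2 was at 0.069 FPKM in IB and 0 FPKM in VC, where the pseudocount holds the ratio near 0.

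Of the 59 lists, the medians of the 2 states lay farthest apart in the integrated stress response and amino acid genes, of which 31 of 39 were measured. Under cytokines the median was 0.30 below that of all genes and at rest 0.27 above it, a difference that was not tested. Under cytokines 5 (16.1%) were lower and none was higher, shares near the background of 11.6% and 3.40%. At rest 9 of the 31 were higher and 1 was lower, where 4.96% of all genes were higher. Chac1, which degrades glutathione and is switched on by Atf4, was at 61.1 FPKM in CCIB and 71.8 FPKM in CCVC, but at 26.5 FPKM in IB and 4.65 FPKM in VC. Trib3, a pseudokinase of the same response, was at 67.1 FPKM in CCIB and 80.6 FPKM in CCVC, but at 27.7 FPKM in IB and 5.83 FPKM in VC. Atf4 itself was at 369 FPKM in CCIB and 360.2 FPKM in CCVC. Gdf15, a stress-induced secreted factor, was lower in both states, at 21.2 FPKM in CCIB and 62.5 FPKM in CCVC and at 6.35 FPKM in IB and 20.8 FPKM in VC. The MAPK feedback and immediate-early genes had a median 0.11 above that of all genes under cytokines, with 4 of 38 (10.5%) higher, and 0.39 above it at rest, with 11 higher. The opposite was seen for genes whose ratio was large only under cytokines: Il4i1 (log2 ratio 2.86 under cytokines, 0.36 at rest), Lcn2 (1.67 under cytokines, 0.10 at rest), Faim (2.04 under cytokines, 0.05 at rest), Kcnn3 (1.31 under cytokines, 0.32 at rest) and Sod2 (1.09 under cytokines, 0.29 at rest). At rest Lcn2 stood at 0.069 FPKM in IB and 0 FPKM in VC, where the pseudocount of 1 FPKM holds the ratio near 0. Its resting value therefore says nothing on the drug. Kcnn3 was also low at rest, at 1.29 FPKM in IB and 0.82 FPKM in VC. Chac1, Trib3 and Atf3 were named here after their values were seen.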

How the data were processed

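The 12 RNA libraries of INS-1 cells fall into 4 groups of 3, read from the sample titles. According to the methods, 125 bp paired-end reads were aligned with HISAT2, and the authors calculated FPKM per gene. DESeq2 is named in the submitters' processing notes, and versions and the genome build are not given in the sources used here. The deposited FPKM table holds 1 column of group means for each of 4 groups, 0 columns of single libraries, and 9694 genes, which the study had selected across its samples at an adjusted p below 0.05. Library FPKM, read counts and normalized counts of CCIB and CCVC came from the first part of a supplementary sheet for 1752 genes, and their library means equalled the deposited columns within a relative tolerance of 0.0001.

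Log2 ratios were taken after a pseudocount of 1 FPKM, for the 8795 genes whose 4 group values averaged 1 FPKM or more (899 left out), and counted at 1.5-fold. The fold scale understates changes of low genes. The authors' fold changes and p-values in that sheet were not used. Gene lists (31 written by hand, 28 by symbol prefix) and named genes were chosen with earlier results of these data known. Named were the 15 largest ratios each way at 5 FPKM or more, up to 4 and 2 members of a list by direction, its highest member, genes nearest the threshold, the 10 highest genes and genes the study names for RNA. Some genes of this rule and of the counts are not reported here. Other genes, including those that complete a count of 5 or fewer, were named after their values were seen. Some gene names are numbers (18) or stand on several rows (40). Promoters came from RefSeq (GRCr8), matched by symbol. Counts without molecular identifiers carry counting error and PCR error alike. Alternatives were the pseudocount, the minimum, scaling, the fold, single libraries and the replicate block. The calculation was tested on simulated means. Python 3.11.15, numpy 2.4.6, pandas 2.3.3 and matplotlib 3.10.9 were used.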

Additional observations from a re-analysis of the deposited data

How the results depend on the processing

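The counts of 299 higher and 1022 lower genes depended most on the fold and on the scaling. At the lower alternative fold (0.32 on the log2 scale) there were 1055 higher and 2373 lower genes, and at 2-fold 52 and 291. A minimum mean of 5 FPKM left 220 higher and 619 lower genes, since fewer genes were kept. Moving all ratios to the scale of the normalized counts, an alternative chosen after seeing the data, gave 505 higher and 713 lower genes, and on the normalized counts themselves the genes with library values had 227 higher and 346 lower, against 103 and 355 on FPKM. Centring on the median gave 411 (4.67%) higher and 826 (9.39%) lower genes, so that 33.2% of the genes past 1.5-fold were higher. A pseudocount of 0.1 FPKM, no minimum, upper-quartile scaling and scaling to genes other than mitochondrial and insulin moved both counts by less than 1.5 times. Leaving out 1 library at a time gave 100 to 114 higher and 350 to 369 lower genes among those with library values. The replicate numbers 3 and 5 stand in both groups but only as a number, with correlations of same-numbered deviations of 0.28 and 0.33, and taking ratios within them (replicate block) gave 105 higher and 364 lower genes. Of the 224 named genes past 1.5-fold none turned its direction under these settings, and 32 fell short of 1.5-fold in at least 1 of them. Of the 71 named genes short of 1.5-fold, 8 changed sign in at least 1 setting, with main log2 ratios within 0.095 of 0. The list counts were less stable. Of 827 list counts taken over the alternative settings, 128 (15.5%) moved by more than 1.5 times or to or from 0. The sign of the median relative to all genes turned for 7 of 59 list medians, among them exocytosis machinery (0.03, and −0.005 with no minimum) and phosphodiesterases (−0.24, and 0.17 at a minimum of 5 FPKM).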

Other observations

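Single genes outside the groups above also had large ratios. The matrix and secreted genes Plat, tissue plasminogen activator (29.6 FPKM in CCIB, 7.05 FPKM in CCVC), the heparan sulphate carrier Sdc4 (198 FPKM in CCIB, 76.8 FPKM in CCVC) and the growth factor Tgfb1 (7.12 FPKM in CCIB, 2.44 FPKM in CCVC) were higher, and Col6a2, a collagen chain, was lower, with 2.76, 2.48 and 2.40 FPKM in CCIB and 12.9, 11.5 and 9.72 FPKM in CCVC. Nr0b2, a nuclear receptor that represses others, had 0.492, 0.559 and 0.455 FPKM in CCIB and 4.07, 3.11 and 4.55 FPKM in CCVC. The transcription factor Bhlhe22 was at 11.6 FPKM in CCIB and 1.86 FPKM in CCVC, and at 27.1 FPKM in IB and 3.30 FPKM in VC. Just past 1.5-fold stood Foxa3 (12.5 FPKM in CCIB, 19.3 FPKM in CCVC) and Ndufb10 (102 FPKM in CCIB, 67.6 FPKM in CCVC), and just short of it Isl1 (48.3 FPKM in CCIB, 31.9 FPKM in CCVC) and Rtn4r (10.4 FPKM in CCIB, 16.1 FPKM in CCVC). Nearest the minimum mean were Olfm4, kept at 1.01 FPKM, and LOC688553, left out at 0.994 FPKM.

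These values rest on group means of 3 libraries, and for most genes past 1.5-fold no spread was at hand. Library values covered 34.4% of the higher and 34.7% of the lower genes. Faim, Gspt1, Mff and Aldh18a1, with large ratios at under 10 FPKM, are among the genes without library values. A gene outside the table was not listed, which does not make it absent. Near-identical copies (Ins1 and Ins2, RT1 genes) may share reads.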
